A study of Homo sapiens with 8 samples.

Results

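A set of 40 genes of the cell cycle and of DNA replication was followed through H3K27ac, an acetylation mark of active promoters and enhancers. A peak was linked to a gene when the authors' annotation placed the gene's transcription start site (TSS) in the peak or within 50 kb of it, or when the peak overlapped the gene on GRCh38. Of the 31961 peaks in the series, 91 were linked in this way, to 37 of the 40 genes, and each of them to 1 member. No peak was linked to CCND2 and CCNE1, which encode a D-type and an E-type cyclin, or to TYMS, which encodes thymidylate synthase. The 91 peaks comprised 35 that covered an annotated start of a member gene (33 genes), 26 in gene bodies and 30 in the flanks. For MCM4 and CCNE2 no start was at hand in the sources used, so their peaks were counted as gene body. The MCM4 peak covers an end of its gene and may hold the start. Among peaks within 50 kb by the authors' distances, the farthest were at 48.357 kb from CDK1 (mean score 25.8) and at 47.596 kb from MCM3 (55.4). Peaks linked by overlap with a long gene could lie farther from its start, up to 185.529 kb at CDK6. Just beyond the limit lay peaks at 51.282 kb from BUB1B (680.8) and at 57.085 kb from MYC (1085.5), which were not counted.

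Cells enter the cycle when D-type cyclins with CDK4 or CDK6, and then cyclin E with CDK2, phosphorylate the RB1 protein and release E2F transcription factors, while the CDK inhibitors oppose these kinases. E2F targets include the factors that load the MCM helicase at origins and the enzymes that supply nucleotides. Later, cyclin A and cyclin B with CDK1 drive the passage through G2 and mitosis. The spindle checkpoint holds the anaphase-promoting complex in check until chromosomes are attached, and the complex then ends mitosis. Type I interferons are known to slow proliferation in many cell types, and CDK inhibitors are among the genes studied in that setting.

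ChIP-seq for the mark (antibody ab4729, Abcam) was done in CFPAC1 cells, a long-established human line from a pancreatic ductal adenocarcinoma, as 4 clones. All clones were isolated by dilution after infection with the plasmid that the labels spell lentiCRIPSv2: control clones 1 and 4 with no guide named, and IRF1-guide clones 11 and 13 with wt Cas9 plus a guide to IRF1, whose product is a transcription factor of the interferon response. Every clone gave 1 library without treatment (UT) and 1 after 2 hours of hIFNb (taken as human interferon beta), which made 4 groups of 2 libraries. The labels do not say whether the IRF1 protein is lost, a line is a single clone, and a difference between 2 clones and 2 clones cannot be told apart from differences among clones in general.

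The value of a peak is its score, a normalised whole number deposited by the authors for each peak and library. Summed scores of the libraries ran from 3277561 to 3460390, and 56 to 172 peaks per library had a score of 0. Depth before normalisation was not used here. All 11 marker genes fixed for ductal epithelium and this line overlapped a peak, among them KRT19 and CFTR. Of 13 markers of other cell types, 8 overlapped a peak, with CPA1 (mean score 814.5) and PTPRC (405.1) the highest. DCN, PRSS1, INS and GCG were among those that overlapped none. Their part in the results was not tested. In a limma model of all 31961 peaks, hIFNb raised the score at RSAD2 and ISG15, 2 interferon-induced genes, by 3.52 ± 0.20 and 1.13 ± 0.14 on the log2 scale (SE, adjusted p = 2.59e-05 and 0.000956). GAPDH and ACTB, 2 housekeeping genes, gave 0.07 ± 0.12 and 0.15 ± 0.19 and did not pass. Changes are log2(score + 1) differences with their standard error (SE), and a peak was called at a Benjamini-Hochberg adjusted p under 0.05 over all peaks. In these bulk libraries, more cells with the mark and more of the mark per cell cannot be told apart.

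Sequences upstream of 6 member genes show what the start-site peaks cover. The first 4 belong to start-site peaks called with hIFNb, and the last 2, E2F1 and PCNA, to E2F targets whose start-site peaks were not called. Each is the 250 bases before a RefSeq start on GRCh38.p14, 5′ to 3′ on the strand given, and capitals mark E2F letters (TTTCCCGC or TTTGGCGC), the CHR element (TTTGAA) or the CCAAT box (CCAAT), on either strand.
CCND3, chr6:42048689-42048938, minus strand: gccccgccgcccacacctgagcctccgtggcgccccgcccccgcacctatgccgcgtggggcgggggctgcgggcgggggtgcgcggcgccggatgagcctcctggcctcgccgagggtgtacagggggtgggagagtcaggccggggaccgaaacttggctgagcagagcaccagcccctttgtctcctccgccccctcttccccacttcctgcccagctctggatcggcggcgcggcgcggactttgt
CDKN1A, chr6:36678464-36678713, plus strand: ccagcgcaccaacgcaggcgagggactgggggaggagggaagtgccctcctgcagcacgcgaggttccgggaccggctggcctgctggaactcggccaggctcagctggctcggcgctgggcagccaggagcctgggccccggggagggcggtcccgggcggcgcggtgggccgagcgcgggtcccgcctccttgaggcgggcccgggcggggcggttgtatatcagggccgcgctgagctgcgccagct
BUB1, chr2:110678064-110678313, minus strand: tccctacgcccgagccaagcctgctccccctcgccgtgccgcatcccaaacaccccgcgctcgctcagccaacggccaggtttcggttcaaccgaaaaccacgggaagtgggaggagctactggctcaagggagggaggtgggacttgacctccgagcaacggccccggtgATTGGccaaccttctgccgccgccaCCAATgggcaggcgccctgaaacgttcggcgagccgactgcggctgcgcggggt
CDC20, chr1:43358731-43358980, plus strand: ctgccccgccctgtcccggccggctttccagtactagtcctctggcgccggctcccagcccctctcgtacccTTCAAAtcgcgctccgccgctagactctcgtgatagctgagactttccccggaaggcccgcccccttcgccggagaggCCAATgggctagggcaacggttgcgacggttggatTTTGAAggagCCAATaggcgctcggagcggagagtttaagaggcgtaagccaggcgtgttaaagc
E2F1, chr20:33686386-33686635, minus strand: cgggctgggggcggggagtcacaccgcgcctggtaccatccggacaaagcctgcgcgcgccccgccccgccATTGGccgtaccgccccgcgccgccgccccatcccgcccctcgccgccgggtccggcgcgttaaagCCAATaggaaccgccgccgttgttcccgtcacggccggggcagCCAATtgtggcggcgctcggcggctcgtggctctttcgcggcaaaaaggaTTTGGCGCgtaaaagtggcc
PCNA, chr20:5126623-5126872, minus strand: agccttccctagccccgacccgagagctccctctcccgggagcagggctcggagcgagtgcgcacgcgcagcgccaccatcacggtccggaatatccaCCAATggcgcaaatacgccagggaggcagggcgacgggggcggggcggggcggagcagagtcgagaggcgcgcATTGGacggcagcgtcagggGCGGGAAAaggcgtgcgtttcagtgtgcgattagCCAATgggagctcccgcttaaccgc
The CCND3 and CDKN1A runs hold none of these letters, BUB1 and CDC20 hold CCAAT boxes, and CDC20 also holds CHR elements, which are known from promoters of mitotic genes. E2F1 and PCNA hold E2F letters together with CCAAT boxes. Upstream sequences of CCNA2, CCNB1 and CDK1, not shown here, hold CCAAT boxes without E2F letters, and their start-site peaks were not called either. The 6 sequences therefore do not show that motifs separate called from uncalled peaks. RefSeq windows of 300 bases, the 250 before a start and the 50 after it, were at hand for 32 of the 40 genes (42 windows) and for 35116 starts in all. E2F letters were found in 23.8% of the members' windows and in 2.27% of all windows, and the CCAAT box in 69.0% and 34.6%. The CHR element was found in 23.8% and 15.2%, and the E-box CACGTG, the motif that MYC binds, in 16.7% and 7.26%. Of motifs known from interferon signalling, the ISRE, the element that IRF and ISGF3 factors bind, was in 0 of the 42 windows and in 3.57% of all windows. GAS letters (TTCNNNGAA) were in the window of RB1 alone, 1 of 42 (2.38%), and in 7.66% of all. That window (chr13:48476200-48476499) lies outside both peaks linked to RB1. The start under the RB1 start-site peak (chr13:48302512-48305052) had no window and was not searched. A CCAAT box can lie beside or overlap the other motifs, and a match describes letters only.

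Before any comparison, the level of the mark differed widely among the members. The median of the 91 mean scores was 65.2, against 47.4 over all peaks, and the median width was 3811 bp, against 3550 bp. Per kb of peak, the median score was 20.4 for the 35 start-site peaks, against 17.6 for all peaks with a TSS by the authors' annotation, and 14.8 for the members' other peaks, against 13.7 for all peaks. The densest start-site peak was that of CDC6, which loads the MCM helicase at origins, at 32.9 per kb, and the sparsest that of E2F1 at 9.1 per kb. Of the 91 peaks, 14 had a mean score under 20, down to 4.1 at a flank peak of MYC, and changes there rest on few units of score. The widest peak, 51534 bp with a mean score of 2025.4, reached from the 3′ part of CDC6 over RARA, the retinoic acid receptor alpha gene.

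**Figure D1:**
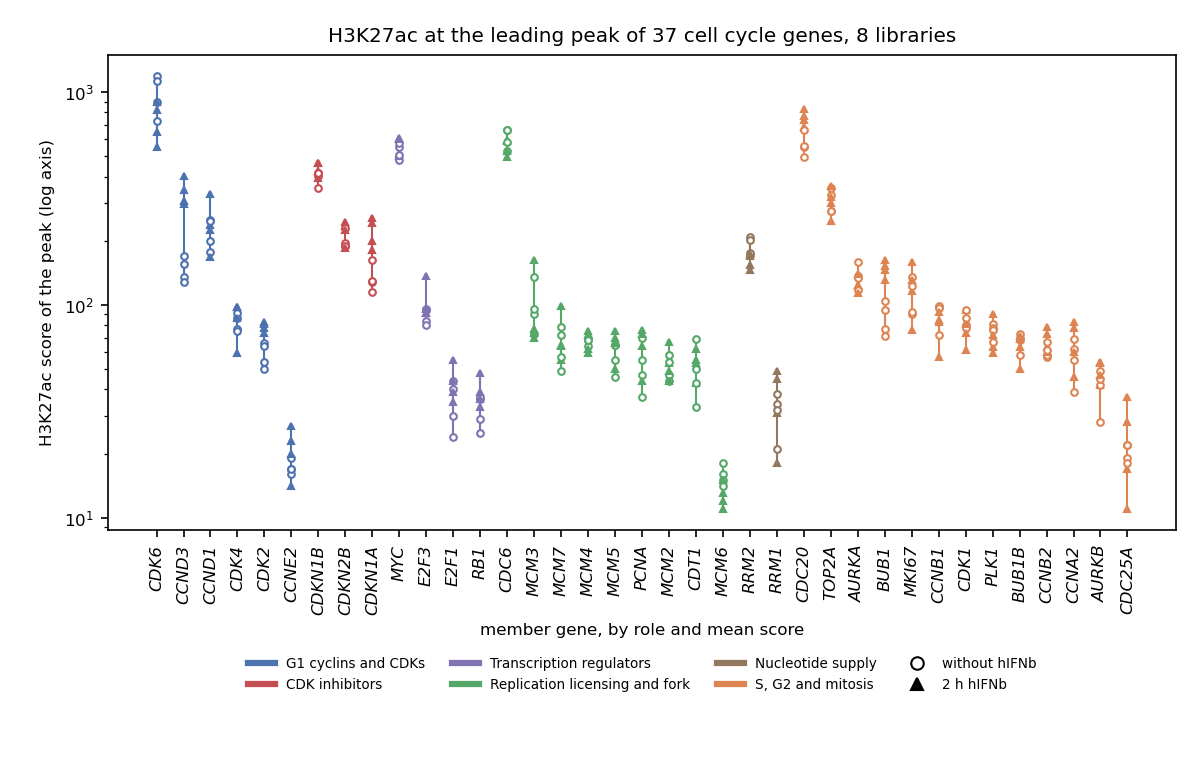
H3K27ac score (log axis) in the 8 libraries at the leading peak of each of the 37 member genes with a linked peak, ordered by role and by mean score. Circles are libraries without hIFNb, triangles are libraries after 2 hours of hIFNb, and the bar runs from the lowest to the highest library. In CCND3, CDK2, CDKN1A, CDC20 and BUB1 every triangle lies above every circle, and the highest library was under 2 times the lowest in 24 of the 37. How many of all peaks show such a separation was not counted.

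Of the 91 peaks, 7 rose with hIFNb over all clones and 0 fell (7.69% and 0.0%), and all 7 were higher in each of the 4 clones. The peaks were called on these same scores, so that is no separate evidence. They lay at CCND3, CDKN1A, MCM3, CDC20, at 2 peaks of BUB1, and at HMOX1 in the flank of MCM5. Of all peaks, 6.55% rose and 2.58% fell, so the share of rises is near the background and is not a result about cell cycle genes. The median log2 change was 0.11 for the members and -0.00 for all peaks. Every treated library lay above every untreated one at 12 of the 91 peaks, and below at 1. The share of all peaks without such overlap was not counted. With the median of each library set equal, which lowered the log2 changes by 0.076 in the median, 6 members rose and 0 fell, and rises made up 56.1% of all called peaks in place of 71.8%. The model used so far takes the mean of each group; a second one adds the clone as a block, so that each treated library is set against the untreated library of its clone. With the clone as a block, 13 of the 91 rose and 4 fell (14.3% and 4.4%), against 16.6% and 15.9% of all peaks.

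**Figure D2:**
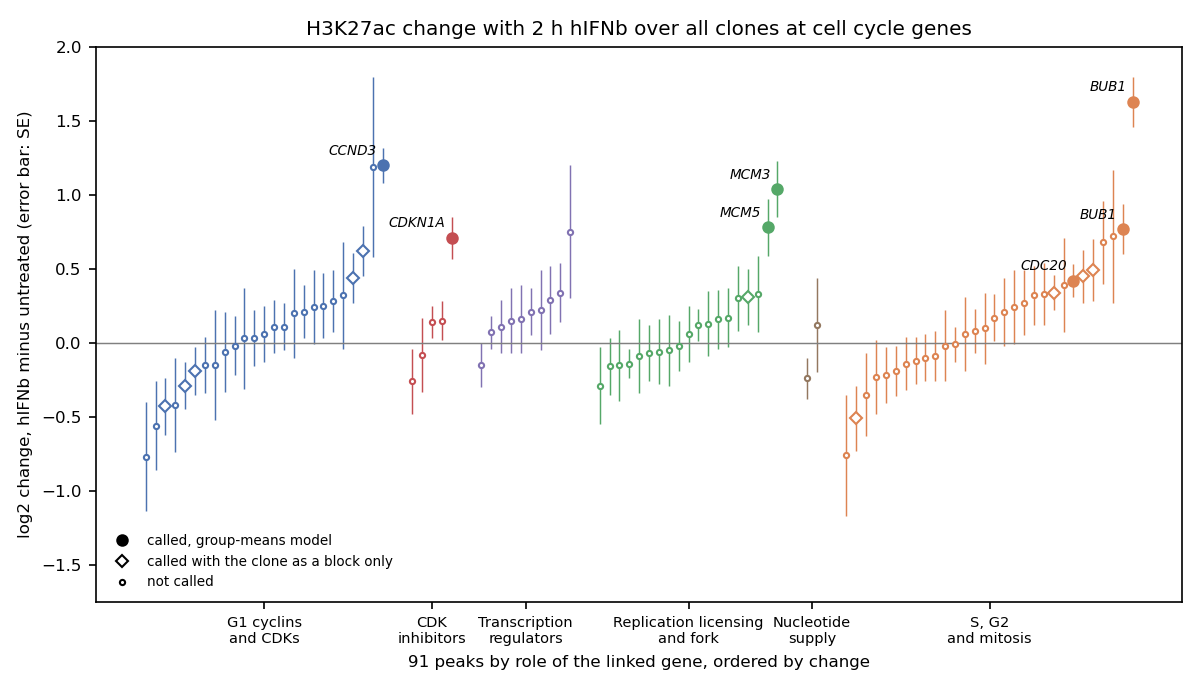
Log2 change with hIFNb over all clones at the 91 linked peaks (vertical axis, error bar 1 SE of the group-means model), grouped by the role of the gene and ordered by change. Filled circles are the 7 called peaks, open diamonds the 10 peaks called only with the clone as a block, and small circles were not called. The upper peak of BUB1, at 1.63, lies highest, and the 4 diamonds below 0 belong to CDK6, CCND3 and PLK1.

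Among the G1 cyclins and CDKs, 1 of 25 peaks rose (4.0%, against 6.55% of all peaks). It lay at CCND3, which encodes cyclin D3, a partner of CDK4 and CDK6. This peak (chr6:42038249-42051566) covers the distal start of CCND3, shown above without any of the motifs, and the start of TAF8, a TFIID subunit gene, for which the authors name it. Without hIFNb its scores were 155 and 169 in control clones 1 and 4 and 135 and 128 in IRF1-guide clones 11 and 13. After hIFNb they were 404 and 347 in the controls and 298 and 306 in the IRF1-guide clones. The lowest treated library stood well above the highest untreated one. The rise was 1.20 ± 0.12 (2.30-fold, limma adjusted p = 0.000363), and it was called in each genotype, with 1.20 ± 0.18 for the controls and 1.19 ± 0.18 for the IRF1-guide clones (adjusted p = 0.00488 and 0.00958). The mark at one locus cannot be assigned to CCND3 or to TAF8.

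The proximal CCND3 starts lay under a second peak (chr6:41935734-41942906), with scores of 126 and 132 in the untreated controls and 216 and 193 in the treated ones. In the IRF1-guide clones it went from 139 and 105 to 225 and 144, so every treated library lay above every untreated one, at 144 against 139 where they came closest. The change of 0.62 was called only with the clone as a block (0.62 ± 0.10, limma adjusted p = 2.57e-05). A CCND3 gene-body peak (chr6:41960790-41971301) had scores of 238 and 270, then 183 and 210, in the controls, and 279 and 212, then 246 and 179, in the IRF1-guide clones. It was lower after hIFNb in every clone and fell by 0.29 with the block alone (SE 0.09, limma adjusted p = 0.00972). Within this gene the 2 ends rose and an inner region fell under the blocked model.

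CDK6, the kinase partner of the D-type cyclins, had 10 linked peaks that covered 144327 bp of its long gene body. At the strongest (chr7:92736965-92773725) control clone 1 went from 1184 to 820 and clone 4 from 727 to 549, while IRF1-guide clone 11 went from 899 to 649 and clone 13 from 1126 to 900. Every clone fell, yet the treated value of clone 13 exceeded the untreated values of clones 4 and 11. The change of -0.43 ± 0.19 did not pass in the group-means model and was called with the clone as a block (SE 0.06, limma adjusted p = 1.17e-06), which was so in each genotype. A CDK6 peak at the 3′ end (chr7:92619417-92648430) fell by 0.19 under the block (SE 0.06, limma adjusted p = 0.0248). The start-site peak of CDK6, between 217 and 369, gave -0.02 ± 0.20.

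The 2 clones of a genotype stood further apart at CDK6 than the treated and untreated libraries of 1 clone. Summed over the 10 peaks, untreated clones 1 and 4 had scores of 3483 and 2403, and clones 11 and 13 had 2746 and 3685. After hIFNb the sums were 3069, 2300, 2335 and 3436 in the same order. Clone 13 stood 1.34 and 1.47 times above clone 11 in the 2 treatments, with 9 of the 10 peaks higher in both, while 33.2% of all peaks were. Clone 1 stood 1.45 and 1.33 times above clone 4, with 8 of 10 peaks higher in both, against 26.7% of all peaks. Over all peaks, the 10th to 90th percentiles of the log2 difference were -0.55 to 0.61 for clone 13 minus clone 11. For clone 1 minus clone 4 they were -0.66 to 0.47. The CDK6 peaks ran from 0.0 to 1.05 and from -0.06 to 0.64, so some lay inside these ranges and some above. These clones share a genotype within each pair, the peaks share 1 gene, and the cause was not tested.

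**Figure D3:**
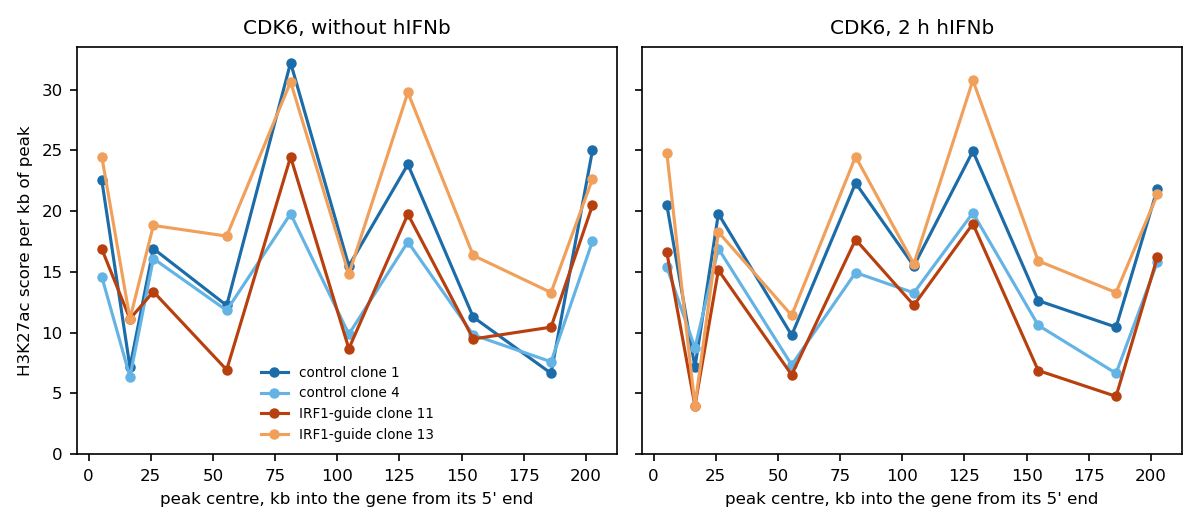
H3K27ac score per kb of peak (vertical axis) at the 10 peaks of CDK6, placed by the distance of the peak centre into the gene from its 5′ end, for the 4 clones without hIFNb (left) and after 2 hours of hIFNb (right). Lines join the peaks of 1 library and are no signal between them. Clone 13 lies above clone 11 at 9 of 10 peaks in both treatments.

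The other G1 genes were not called in the group-means model. CCND1, which encodes cyclin D1, ran from 167 to 330 at its start-site peak, with treated libraries at both ends of that range. CDK4 ran from 59 to 98 at a start-site peak shared with MARCHF9. CDK2 ran from 50 to 83 at a gene-body peak named for RAB5B, and this peak rose by 0.44 ± 0.14 under the block alone (limma adjusted p = 0.0213). The start-site peak of CDK2, named for PMEL, ran from 31 to 53 and gave 0.28 ± 0.21. Treated and untreated libraries overlapped there. CCNE2, which encodes a second E-type cyclin, had only a weak peak between 14 and 27 that the authors name for NDUFAF6.

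Of the 5 peaks at CDK inhibitors, 1 rose, while 6.55% of all peaks did. It lay at CDKN1A, which encodes p21, an inhibitor of cyclin-CDK complexes and a p53 target. Its peak (chr6:36676032-36685950) covers the CDKN1A starts, including the sequence shown, and the start of the long noncoding RNA DINOL. Without hIFNb it scored 128 and 163 in control clones 1 and 4 and 129 and 115 in IRF1-guide clones 11 and 13. With hIFNb it scored 255 and 243 in the controls and 199 and 180 in the IRF1-guide clones. Treated and untreated libraries did not overlap. The rise was 0.71 ± 0.14 over all clones (1.63-fold, limma adjusted p = 0.0124). It was lost, with adjusted p up to 0.0543, when control clone 1 untreated, control clone 1 treated or IRF1-guide clone 11 treated was left out.

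Taken by genotype, CDKN1A gave 0.78 ± 0.20 in control clones (limma adjusted p = 0.0518) and 0.63 ± 0.20 in IRF1-guide clones (adjusted p = 0.214), both short of the threshold. With the clone as a block both were called, with adjusted p of 0.000125 and 0.00253. CDKN1B, which encodes p27, ran from 355 to 465 at its start-site peak and gave 0.14 ± 0.11. At CDKN2B, which encodes p15, the start-site peak was weak, between 15 and 26, and gave -0.08 ± 0.25. The strongest peak linked to CDKN2B lies in its flank, 12.773 kb away, overlaps CDKN2A and is named for CDKN2B-AS1. It ran from 184 to 245 and gave 0.15 ± 0.13, and none of these changes at CDKN1B and CDKN2B was called over all clones in either model.

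At the transcription regulators 0 of 10 peaks were called over all clones, in the group-means model or under the block. Of all peaks, 6.55% rose and 2.58% fell in the first model, and 16.6% and 15.9% under the block. In the same comparison 0 of the 10 had an unadjusted p under 0.05 in limma, against 25.7% of all peaks in the group-means model and 42.4% under the block. With so few peaks, these counts are no result about these genes. MYC, which drives growth and cell cycle entry, had a start-site peak of 23786 bp with scores of 477 to 610 and a change of 0.07 ± 0.11. E2F3 ran from 80 to 136 (0.21 ± 0.16), and E2F1 from 24 to 55 (0.34 ± 0.20). RB1, which encodes the retinoblastoma protein, ran from 25 to 48 at the start it shares with RB1-DT (0.29 ± 0.23). The MYC peak was thus among the strongest of the members and its libraries lay close together.

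Of the 19 peaks at licensing and fork genes, 2 rose (10.5%, against 6.55% of all peaks). They lay at MCM3 and near MCM5, both of which encode subunits of the MCM helicase. The MCM3 peak (chr6:52264509-52277054) lies in the gene body, 7.688 kb from the start. Its scores went from 103 and 152 to 251 and 278 in control clones 1 and 4, and from 130 and 179 to 251 and 379 in IRF1-guide clones 11 and 13. All treated libraries lay above all untreated ones. The rise was 1.04 ± 0.19 (2.06-fold, limma adjusted p = 0.00798), and it was 1.07 ± 0.27 in control clones (adjusted p = 0.0491) and 1.01 ± 0.27 in IRF1-guide clones (adjusted p = 0.133), where it was called only with the block.

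At the MCM3 start site the picture differed: scores were 73, 90, 95 and 135 without hIFNb in clones 1, 4, 11 and 13, and 74, 77, 70 and 162 with it. That change was -0.09 ± 0.25 and did not pass. The difference between the 2 MCM3 peaks was not tested. Clone 13 exceeded clone 11 at all 4 MCM3 peaks in both treatments, as it did at 33.2% of all peaks. The summed scores were 1.43 and 1.66 times as high.

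The peak near MCM5 (chr22:35375097-35381529) lies 18.611 kb from the MCM5 start and covers the start of HMOX1, the gene of heme oxygenase 1. Control clones 1 and 4 went from 44 and 76 to 102 and 98, and IRF1-guide clones 11 and 13 from 63 and 64 to 113 and 107. The groups did not overlap, and the rise was 0.78 ± 0.19 (1.72-fold, limma adjusted p = 0.0318). It was lost in 7 of the 8 fits that left out 1 library, all but that without control clone 4 untreated, with adjusted p up to 0.0982. The MCM5 start-site peak itself ran from 46 to 75 and gave 0.17 ± 0.20. A gene-body peak of MCM5 (chr22:35444831-35449894) rose by 0.31 ± 0.12 under the block alone (limma adjusted p = 0.0441).

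The remaining licensing and fork genes showed no call at their leading peaks. CDC6 ran from 496 to 665 (-0.14 ± 0.10), and CDT1, its partner in loading the helicase, from 33 to 69. Scores were 44 to 67 at MCM2, 59 to 75 at MCM4, 11 to 18 at MCM6 and 49 to 99 at MCM7, all genes of helicase subunits. The MCM4 peak is named for PRKDC, the MCM2 peak for TPRA1, and neither can be assigned to 1 gene. PCNA, the sliding clamp of DNA polymerases, ran from 37 to 76 at the start-site peak whose sequence is shown (0.30 ± 0.22). Of the 2 nucleotide-supply peaks, RRM2 ran from 145 to 209 (-0.24 ± 0.14) and RRM1 from 18 to 49 (0.12 ± 0.32), and neither subunit gene of ribonucleotide reductase was called.

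Of the 30 peaks at genes of S phase, G2 and mitosis, 3 rose (10.0%, against 6.55% of all peaks). Of these, 2 lay at BUB1, a kinase of the spindle checkpoint. The stronger change was in the gene body (chr2:110655569-110662011), 16.052 kb from the start, at a peak the authors name for SNORD132. Control clones 1 and 4 went from 68 and 57 to 205 and 213, and IRF1-guide clones 11 and 13 from 38 and 37 to 131 and 93. No treated library reached down to an untreated one, and both IRF1-guide clones lay below both controls in each treatment. The rise was 1.63 ± 0.17 (3.10-fold, limma adjusted p = 0.000364), with 1.73 ± 0.24 for the controls and 1.53 ± 0.24 for the IRF1-guide clones (adjusted p = 0.00384 and 0.0121).

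The BUB1 start-site peak (chr2:110674779-110681377), which covers the CCAAT boxes shown above, rose less. It went from 94 and 77 to 162 and 130 in control clones 1 and 4 and from 104 and 71 to 152 and 145 in IRF1-guide clones 11 and 13. The groups did not overlap, although the lowest treated library was only 130 against 104 in the highest untreated one. The rise was 0.77 ± 0.17 (1.71-fold, limma adjusted p = 0.0221). It was lost in 5 of the 8 fits that left out 1 library (control clone 4 untreated, control clone 1 treated, IRF1-guide clone 13 untreated, and IRF1-guide clones 11 and 13 treated), with adjusted p up to 0.0851.

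CDC20, an activator of the anaphase-promoting complex, lies under a peak of 20949 bp (chr1:43356589-43377537) that also overlaps ELOVL1, a fatty acid elongase gene. Scores went from 494 and 550 to 680 and 769 in control clones 1 and 4 and from 660 and 556 to 832 and 736 in IRF1-guide clones 11 and 13. Treated libraries began just above the highest untreated one. The rise of 0.42 ± 0.11 (1.34-fold, limma adjusted p = 0.0438) was the smallest of the 7 calls. It was lost in all 8 fits that left out 1 library, with adjusted p from 0.059 to 0.139, and with library medians set equal (0.34 ± 0.12, limma adjusted p = 0.0877). The sequence shown above holds the CHR elements and CCAAT boxes of the CDC20 start, which is 1 end of this wide peak.

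**Figure D4:**
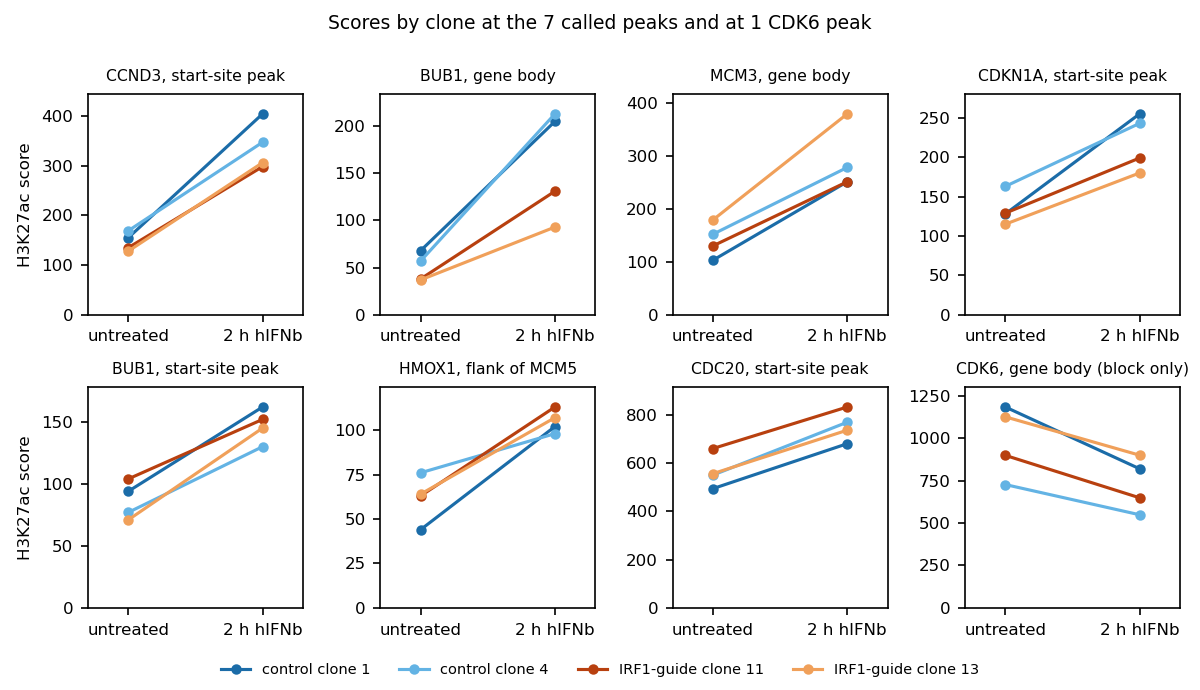
H3K27ac score (vertical axis from 0) without and with hIFNb at the 7 called peaks and at the strongest CDK6 peak, with 1 line per clone. All 4 lines go up at the 7 called peaks and down at CDK6, where the untreated clones range from 727 to 1184.

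Start-site peaks of the other mitotic genes were not called. CDK1, the kinase of mitotic entry, ran from 61 to 94 and CCNA2, which encodes cyclin A2, from 39 to 83. For the B-type cyclins the ranges were 57 to 99 at CCNB1 and 57 to 79 at CCNB2. MKI67, the gene of the proliferation marker Ki-67, ran from 76 to 159 and TOP2A, which encodes topoisomerase II alpha, from 246 to 360.

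The mitotic kinases gave 114 to 159 at AURKA, on a peak named for CSTF1, 28 to 54 at AURKB and 59 to 90 at PLK1. BUB1B, which encodes the checkpoint protein BUBR1, ran from 50 to 73. CDC25A, a phosphatase that activates CDKs, had a single weak peak between 11 and 37. Over all clones the log2 changes at the start-site peaks of these genes ran from -0.22 ± 0.19 at CCNB1 to 0.27 ± 0.22 at AURKB, and TOP2A gave -0.01 ± 0.12. CDC25A, whose scores went opposite ways in the 2 genotypes, gave 0.06 ± 0.25.

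Flank peaks of these genes, 4 in all, were called with the clone as a block only, and the 3 that rose are named for the TSS of another gene. A 27288 bp peak over IGFBP4, 17.416 kb from TOP2A, rose by 0.34 ± 0.06 (limma adjusted p = 0.000113). The peak over EXOSC9 near CCNA2 rose by 0.49 ± 0.16 and a flank peak of CCNB1 by 0.45 ± 0.14 (limma adjusted p = 0.0191 and 0.0116). A peak 7.618 kb from the PLK1 start fell by 0.51 (SE 0.19, limma adjusted p = 0.0365), with control clone 4 going from 65 to 29 and clones 1, 11 and 13 from 39, 46 and 37 to 30, 36 and 32.

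By genotype, 3 of the 91 peaks rose and 0 fell in control clones, those at CCND3, BUB1 and MCM3 described above. Of all peaks, 4.07% rose and 0.676% fell there. In IRF1-guide clones 2 rose and 0 fell, the same CCND3 and BUB1 gene-body peaks, against 1.2% and 0.025% of all peaks. The block gave 9 rises and 3 falls in control clones, against 13.4% and 11.3% of all peaks, and 8 rises and 1 fall in IRF1-guide clones, against 7.44% and 6.64%. All called peaks of the IRF1-guide clones in the group-means model depend on the libraries: none was called without untreated clone 11, untreated clone 13 or treated clone 11, and 1 without treated clone 13. In control clones the call at MCM3 was lost in 6 of 8 such fits, and that at CCND3 without treated clone 1 (limma adjusted p = 0.0703).

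The difference between the 2 hIFNb responses was tested directly and was called at 0 of the 91 peaks, as at 0.0% of all peaks. An unadjusted p under 0.05 was found for 3 members (3.3%) and for 1258 of all peaks (3.94%). The block called 0 members too, while it called 0.763% of all peaks. Under the block 6 members (6.59%) and 12.3% of all peaks had an unadjusted p under 0.05. The smallest p in the group-means model was that of a CDK6 gene-body peak, which gave -1.53 ± 0.60 (limma unadjusted p = 0.028) with scores of at most 14. CDC25A gave 1.21 ± 0.51 (limma unadjusted p = 0.0366), from 22 and 19 to 17 and 11 in control clones 1 and 4 and from 22 and 18 to 37 and 28 in IRF1-guide clones 11 and 13. A flank peak of BUB1B gave 1.13 ± 0.48 (limma unadjusted p = 0.0397). Under the block the smallest p at a start-site peak were those of CDT1 (0.86 ± 0.33, limma adjusted p = 0.261) and CCND1 (-0.43 ± 0.17, limma adjusted p = 0.293). The CDC25A scores moved in opposite directions in the 2 genotypes, and the adjusted p was 1 in the group-means model and 0.282 under the block.

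Without hIFNb, 0 of the 91 peaks differed between IRF1-guide and control clones (limma), as did 0.0% of all peaks. Of the members 4 had an unadjusted p under 0.05 (4.4%), against 12.0% of all peaks, and the clone as a random block called 0 of them and 0.213% of all peaks, with 2 members (2.2%) and 11.9% of all peaks under 0.05 unadjusted. With hIFNb 0 members and 2.43% of all peaks were called, and 5 members (5.49%) and 16.3% of all peaks had an unadjusted p under 0.05. The block again called 0 members, against 3.09% of all peaks, with 5 members (5.49%) and 16.4% of all peaks under 0.05 unadjusted. On the means of each clone 0 members and 0.516% of all peaks were called, and 4 members (4.4%) and 14.7% of all peaks had an unadjusted p under 0.05.

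A BUB1 and a CDK1 peak led these genotype comparisons without passing. The BUB1 gene-body peak, with the scores given above, was lower in IRF1-guide clones by 0.91 ± 0.24 with hIFNb, a log2 difference of -0.91 (limma adjusted p = 0.0809), and gave -0.72 ± 0.24 without it (adjusted p = 0.284). A weak flank peak 44.584 kb from CDK1, at the start of ANK3-DT, scored 15 and 18 untreated and 28 and 24 treated in the 2 controls, clones 1 and 4. IRF1-guide clones 11 and 13 scored 7 and 1 untreated and 9 and 4 treated, so the genotypes did not overlap. Its differences were -2.12 ± 0.64 without hIFNb (limma adjusted p = 0.242), -1.93 ± 0.64 with it (adjusted p = 0.159) and -2.03 ± 0.51 on clone means (adjusted p = 0.115). A pseudocount of 8 in place of 1 brought the comparison with hIFNb to -1.25 ± 0.30 and past the threshold (limma adjusted p = 0.0433). CDC25A with hIFNb (1.18 ± 0.36, limma adjusted p = 0.127), and a flank peak of TOP2A on clone means (-0.95 ± 0.32, limma adjusted p = 0.226), did not pass either. A weak CCND3 gene-body peak, at 4 and 6 in untreated controls and 10 and 16 in untreated IRF1-guide clones, gave 1.21 ± 0.52 (limma adjusted p = 0.398).

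A list of 94 further cell cycle genes gave 161 linked peaks at 88 genes, after 2 peaks shared with the members were left out. Over all clones, under the block, 19 of them rose and 11 fell (11.8% and 6.83%), against 16.6% and 15.9% of all peaks. In the group-means model 3 rose and 1 fell (1.86% and 0.621%), against 6.55% and 2.58% of all peaks. The median log2 change was 0.03. The rises were at RPA2, a subunit of the single-strand binding complex (1.95 ± 0.21, limma adjusted p = 0.000424), at ANLN, which encodes the cytokinesis protein anillin (2.09 ± 0.28, adjusted p = 0.00137), and at LIG1, which encodes DNA ligase 1 (2.03 ± 0.48, adjusted p = 0.0281). The LIG1 peak had scores of at most 20. The fall was at a peak linked to MCM8, a helicase gene of DNA repair (-0.73 ± 0.16, limma adjusted p = 0.0211). There, untreated libraries scored 186 to 234 and treated ones 112 to 159. Whether these called peaks lie at the start, in the body or in the flank of the gene was not worked out. None of them can be assigned to the gene named. These genes, like the members, were described by counts and were not set against other genes by a test.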

How the data were processed

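H3K27ac was measured in 8 libraries of 4 CFPAC1 clones. The submitters' processing notes name Bowtie2 and the build GRCh38 (hg38). The Bowtie2 version, peak caller, peak merging, counter and scaling were not given in the sources used here. For 31961 peaks the deposited table gives a score per library, which the authors normalised and rounded to whole numbers, and distances to the nearest TSS in kb, measured from the peak edges. Depth before scaling sets the precision and was not used here.

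Gene bounds and promoter windows came from RefSeq (GRCh38.p14). Scores were tested as log2(score + 1) with limma 3.58.1 in R 4.3.3 (group means of 4 groups, trend, empirical Bayes), adjusted by Benjamini-Hochberg over all peaks, at 0.05, and the script was tested on simulated data. Genotypes were also compared on clone means. The clone number pairs libraries, since a number names the same clone, and deviations of paired libraries correlated at 0.437 in control and 0.392 in IRF1-guide clones. The block was the clone as a fixed term for hIFNb and as a random term (consensus correlation 0.492) for genotype. Alternatives were the block, a pseudocount of 8, a mean score of at least 20, equal library medians, and leaving out each library. No label says that clones were grown or processed separately beyond their isolation, so p-values describe these 4 clones only. In the group-means model p-values rest on the spread between clones within a group. That model treats the paired libraries of a clone as independent, although their deviations correlated. The fixed clone term removes differences in level between clones. With it, p-values rest on the spread of the hIFNb change among clones of a genotype.

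Every member peak called was named, each gene got the range of its leading peak (the peak holding its TSS by the authors' annotation, otherwise that of highest mean score), and, where none was called, the peaks of smallest p. Peaks called under the block alone were named after their values were seen. The members and lists were chosen with earlier results of these data known. Peaks outside the promoter windows were not searched for motifs.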

Additional observations from a re-analysis of the deposited data

How the results depend on the processing

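With the clone as a block (replicate block), the called member peaks went from 7 to 17 over all clones. In control clones the block gave 12 in place of 3, and in IRF1-guide clones 9 in place of 2. No call of the group-means model was lost under the block, and it changed no other count of calls. Leaving out each library in turn gave 3 to 5 calls over all clones, 1 to 3 in control clones and 0 to 2 in IRF1-guide clones, where fewer libraries also left fewer degrees of freedom. A pseudocount of 8 gave 1 call, a fall at the CDK1 flank peak, for IRF1-guide against control clones with hIFNb, where there was 0. Equal library medians left 6 calls over all clones, without CDC20, and 2 in control clones, without MCM3 (0.98 ± 0.25, limma adjusted p = 0.0559). For the peaks called in the group-means model and the BUB1 and CDK1 peaks of the genotype comparisons, 149 alternatives kept direction and side of the threshold, 40 lost the call, 1 gained it and 0 reversed. The BUB1 and CDK1 genotype results were not called to begin with. For them the same side means no call, so the 149 are not all calls that held. The calls at CCND3, the BUB1 gene body and MCM3 over all clones held in all 8 fits that left out 1 library. The depth behind the scores was not used, so what it limits was not tested.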
